A study of Mus musculus with 4 samples.

Results

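ENTERO-PRO is the name that the deposited per-cell tables gave to 660 of 15234 kept cells from sorted mouse duodenal crypts, and it reads as enterocyte progenitors. Members were the cells with that name, matched by library name and barcode to the raw count matrices. They numbered 116 in WT 1, 65 in WT 2, 11 in APC-KO 1 and 468 in APC-KO 2. The 2 WT libraries came from Atoh1CreER-T2;R26RTom mice and the 2 APC-KO libraries from Atoh1Cre;Apcfl/fl;R26RTom mice as the sample labels spell them. The text on the series writes the inducible Atoh1CreER-T2 driver for the APC-KO mice too. All mice carried the R26RTom reporter, which recombination switches on to make the red protein TOM. All had received tamoxifen intraperitoneally at 1 mg/mL in 2 doses 24 h apart, and were harvested 12 h later. What sets the groups apart in the labels, beside the spelling of the driver, is the floxed Apc alleles. Live TOM+ cells were sorted, so a cell could enter a library only after recombination under the Atoh1 driver in it or in a forebear. The labels name no age, animal, sex or batch, so every p-value below measures the spread between these libraries, which may be technical.

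Enterocytes are the absorptive cells of the intestinal lining. Stem cells at the crypt base give rise to cycling progenitors, and Notch signalling between neighbours sets which of these become absorptive and which switch on Atoh1 and become secretory. Absorptive cells then stop dividing while they move onto the villus and build a brush border of microvilli. In the duodenum they take up fat, sugars, amino acids, iron, calcium and vitamin A, and they pack absorbed fat into lipoproteins. Apc holds Wnt signalling down by having beta-catenin destroyed.

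The matrices held between 54230249 and 61032126 UMIs (unique molecular identifiers, 1 per captured RNA molecule) per library. APC-KO 1 stood apart: 356 of its cells were kept and held 5.15% of its UMIs, against 37.6% to 50.3% in the other libraries. The ENTERO-PRO cells together held 759278, 460514, 71135 and 2511248 UMIs in WT 1, WT 2, APC-KO 1 and APC-KO 2, with a median of 6680, 7655, 6729 and 4943 UMIs per cell. Of the 20 barcodes that kept cells of different libraries shared, 2 belonged to an ENTERO-PRO cell. Levels below are CPM, the UMI count of a gene scaled to the total UMIs of 1 cell name in 1 library, given in the order WT 1, WT 2, APC-KO 1 and APC-KO 2. Where 3 values stand for another cell name, they are those of WT 1, WT 2 and APC-KO 2. With 11 cells, APC-KO 1 gave a coarse ENTERO-PRO profile, and directions between cell names were read over the other 3 libraries, which had at least 20 cells of each name compared.

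The label was checked on 5 marker genes, all of which were present in every library. Fabp1 (ENSMUSG00000054422, chr6:71199827-71205023, plus strand, GENCODE on GRCm38 as for all positions of genes below), the fatty acid binding protein of liver and gut, had 2779, 3136, 6973 and 2322 CPM. Rbp2 (ENSMUSG00000032454, chr9:98486115-98509781, plus strand), which binds retinol inside the enterocyte, had 2253, 2988, 6776 and 1619.5 CPM. Both were higher in the 11 cells of APC-KO 1 than in the other 3 libraries. The other 3 markers are apolipoproteins, the protein coats of lipoprotein particles, and they lie beside each other on chromosome 9. Apoa1 (ENSMUSG00000032083, chr9:46228580-46230466, plus strand) had 1371, 1312, 2418 and 1708 CPM. Apoc3 (ENSMUSG00000032081, chr9:46232933-46235636, minus strand) had 196, 122, 112 and 226 CPM. Apoa4 (ENSMUSG00000032080, chr9:46240696-46243459, plus strand) had 356, 349.6, 731 and 933 CPM, and its APC-KO libraries lay above its WT libraries. The summed level of the 5 markers was 6955, 7906, 17010 and 6807 CPM in ENTERO-PRO and at most 449 CPM in the ISC cells of any library. Cells that the tables name ISC are the stem cell name of the set, and SEC-PRO is its least differentiated secretory name. The next highest of the 11 other names in mean CPM was TUFT for Fabp1, 15.5-fold lower, and GOBLET for Apoa4, 13.9-fold lower. The data therefore carried the enterocyte side of the label, and the progenitor side is taken up with the cell cycle genes below.

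The promoters of 3 enterocyte genes with an HNF4 motif and 1 with CDX motifs are shown because HNF4 and CDX factors are known regulators of enterocyte genes and these genes were high together in ENTERO-PRO. Each sequence is the 250 bases before the transcription start, 5' to 3' on the strand of the gene, from RefSeq on GRCm38.p6, with motif matches in capitals. They lie at chr9:46240594-46240843 (Apoa4, plus strand), chr9:98490287-98490536 (Rbp2, plus strand), chr1:87101607-87101856 (Alpi, minus strand) and chr6:71199629-71199878 (Fabp1, plus strand).
Apoa4: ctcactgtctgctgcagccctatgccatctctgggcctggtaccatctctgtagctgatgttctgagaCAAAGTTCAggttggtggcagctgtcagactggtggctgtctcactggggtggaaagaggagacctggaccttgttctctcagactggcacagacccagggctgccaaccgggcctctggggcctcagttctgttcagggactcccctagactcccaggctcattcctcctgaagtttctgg
Rbp2: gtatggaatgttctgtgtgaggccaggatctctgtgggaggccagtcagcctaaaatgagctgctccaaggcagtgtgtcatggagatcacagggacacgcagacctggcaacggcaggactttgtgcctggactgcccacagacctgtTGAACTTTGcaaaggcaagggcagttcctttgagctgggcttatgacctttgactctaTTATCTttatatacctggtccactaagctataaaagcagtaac
Alpi: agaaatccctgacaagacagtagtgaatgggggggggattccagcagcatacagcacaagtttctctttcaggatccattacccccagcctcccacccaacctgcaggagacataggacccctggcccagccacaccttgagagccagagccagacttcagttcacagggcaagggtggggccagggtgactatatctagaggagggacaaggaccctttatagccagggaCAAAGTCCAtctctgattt
Fabp1: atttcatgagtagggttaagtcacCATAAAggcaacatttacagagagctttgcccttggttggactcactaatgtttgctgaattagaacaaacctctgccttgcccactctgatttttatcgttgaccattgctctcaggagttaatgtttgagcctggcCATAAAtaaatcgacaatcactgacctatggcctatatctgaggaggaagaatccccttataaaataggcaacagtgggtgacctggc
The motifs searched on both strands were CAAAGTNCA for HNF4, TTTATG for CDX and AGATAA for GATA. The Apoa4 window held the HNF4 motif 182 bases before the start, the Rbp2 window held it on the other strand 101 bases before the start, and the Alpi window held it 19 bases before the start. The RefSeq starts of Apoa4, Rbp2 and Fabp1 lie inside the GENCODE genes, so these windows overlap them. The Rbp2 window also held the GATA motif on the other strand 43 bases before the start, and the Fabp1 window held the CDX motif on the other strand 226 and 88 bases before the start. The Apoa1 window held none of the 3. Of all RefSeq windows of this length, 1.19% (392 of 32851) held the HNF4 motif, 10.8% the CDX motif and 9.99% the GATA motif, and of the windows of the genes fitted below 1.01%, 6.02% and 5.95% did. Among windows of the genes called higher in ENTERO-PRO than in ISC (defined below) the shares were 3.22% (33 of 1025), 7.02% and 8.20%. Among those called lower they were 0.595% (7 of 1177), 5.78% and 4.93%. These shares are descriptions of letters in windows, and a match is not a bound site.

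**Figure D1:**
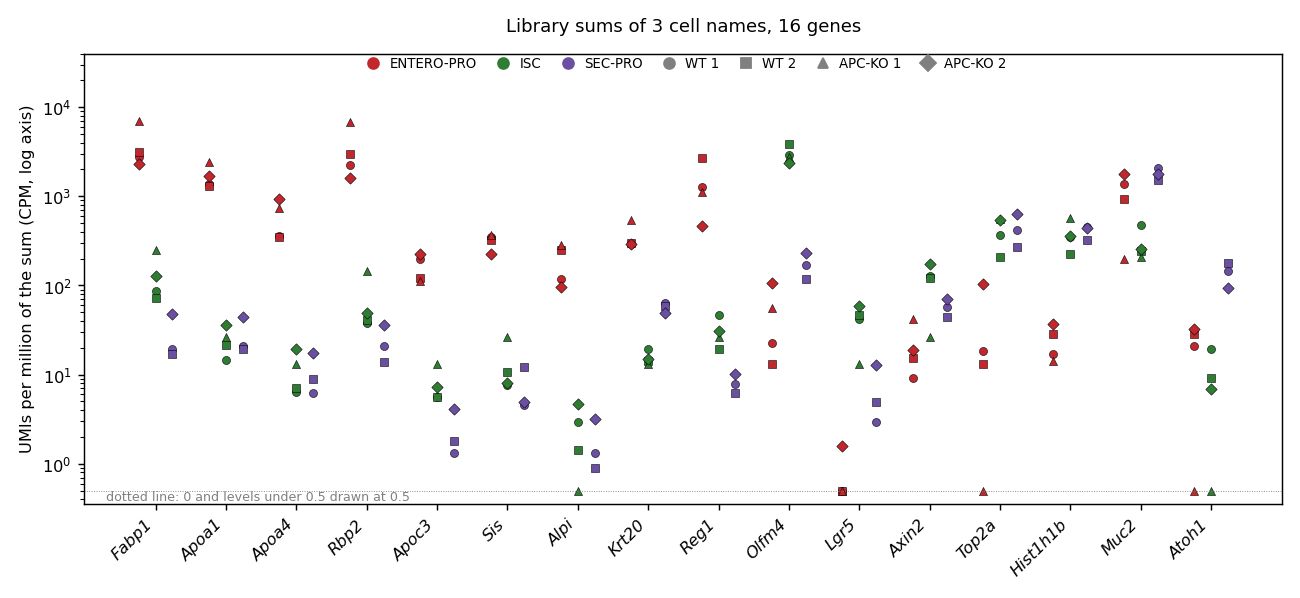
Levels of 16 genes in CPM on a log axis in the summed ENTERO-PRO (red), ISC (green) and SEC-PRO (purple) cells of each library, 1 symbol shape per library, with 0 and levels under 0.5 drawn at 0.5. SEC-PRO has no symbol for APC-KO 1, which had 5 such cells. The 5 markers and the genes Sis to Reg1 sit above the other names in every library shown, and Olfm4 and Lgr5 sit below ISC.

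ENTERO-PRO was then set against ISC and SEC-PRO across 10873 genes. The names had been given from the expression of the same cells, so these comparisons are descriptions and carry no p-value. A gene was called where the log2 difference of an edgeR fit over all names was at least 1 in size and had the same direction in the 3 libraries. Against ISC, 966 genes (8.88%) were called higher and 1209 (11.1%) lower, and the median log2 difference over all genes was -0.04. Against SEC-PRO, 1153 (10.6%) were higher and 1326 (12.2%) lower, together 22.8%, with a median of -0.05. For Fabp1 the ISC levels were 87.0, 73.1 and 126 CPM and the SEC-PRO levels 19.4, 17.1 and 48.2 CPM, log2 differences of 4.92 (SE 0.27) and 6.69 (SE 0.33). For Apoa4 ISC had 6.42, 7.09 and 19.4 CPM and SEC-PRO 6.25, 8.99 and 17.4 CPM, log2 differences of 5.69 (SE 0.18) and 5.82 (SE 0.19). Apoa1, Rbp2 and Apoc3 had log2 differences of 6.03, 5.88 and 4.98 from ISC and of 5.87, 6.78 and 6.27 from SEC-PRO.

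RNA outside cells also held these transcripts. In barcodes with 1 to 50 UMIs, Fabp1 had 614, 535, 2493 and 673 CPM and Apoa4 had 164, 239, 402 and 379 CPM. ENTERO-PRO lay above these levels for both genes in every library, and ISC and SEC-PRO lay below them. With every cell thinned to 2000 UMIs, a Fabp1 UMI was found in 68.7%, 78.1%, 87.5% and 64.1% of the ENTERO-PRO cells of that depth. In TUFT cells, which are chemosensory and not absorptive, the shares were 9.86%, 10.1% and 16.4% in WT 1, WT 2 and APC-KO 2, and 2 of 8 cells had one in APC-KO 1. The median depth before thinning was 6717, 7661.5, 8925.5 and 4979 UMIs for these ENTERO-PRO cells and 3944, 4714, 6934.5 and 2781.5 UMIs for the TUFT cells.

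Fat handling formed the first group of genes. Of 26 fitted genes of lipid absorption, 20 were called higher than ISC and 21 higher than SEC-PRO, none was called lower, and the medians were 2.48 and 2.78. Fabp2, the intestinal fatty acid binding protein, had 2534, 2584, 2980.2 and 2193 CPM in ENTERO-PRO. It had 429.8, 399 and 262 CPM in ISC and 840.4, 867 and 564 CPM in SEC-PRO, log2 differences of 2.87 (SE 0.24) and 1.87 (SE 0.25). P4hb, whose product is a subunit of the transfer complex that loads lipid onto apolipoprotein B and also a general folding enzyme, had 716, 808, 1167 and 644 CPM and log2 differences of 1.58 and 0.44. Of 11 fitted genes of retinoid and vitamin handling, 7 were called higher and 1 lower than ISC (median 1.13), and 9 higher and 1 lower than SEC-PRO (median 2.56). Aldh1a1, a retinaldehyde dehydrogenase, had 107, 102, 183 and 78.8 CPM in ENTERO-PRO against 3.21, 3.55 and 7.52 CPM in ISC.

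Brush border enzymes and transporters differed by more than the structural genes of the brush border in their medians. Of 17 fitted hydrolases, 15 were called higher than either name, with medians of 4.14 against ISC and 4.99 against SEC-PRO. Sis, sucrase-isomaltase, had 349, 321, 366 and 223 CPM in ENTERO-PRO, at most 10.6 CPM in the 3 ISC sums and at most 12.1 CPM in the SEC-PRO sums. Alpi (ENSMUSG00000079440, chr1:87098002-87101606, minus strand), intestinal alkaline phosphatase, had 117, 249.7, 281 and 97.2 CPM and was 33.1-fold above the next name, EC, in mean CPM. The aminopeptidase Anpep had 321, 284, 829 and 191 CPM and a log2 difference of 4.04 (SE 0.18) from ISC. The aminopeptidase Enpep and the endopeptidase Mme had log2 differences of 7.18 and 6.76 from SEC-PRO and of 4.45 and 3.39 from ISC. Mgam, maltase-glucoamylase, differed least of those named here, with 229, 228, 422 and 282 CPM against 135, 131 and 169 CPM in ISC, a log2 difference of 0.92 that was not called.

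Of 20 fitted nutrient transporters, 18 were called higher and 1 lower than ISC (median 3.31), and 19 higher and none lower than SEC-PRO (median 4.47). Slc5a1, the sodium-glucose cotransporter, had 186, 156, 239 and 125 CPM in ENTERO-PRO, 39.1, 51.1 and 35.4 CPM in ISC and 5.59, 4.50 and 9.78 CPM in SEC-PRO. ISC thus lay between the other 2 names in each library. Slc51a, a subunit of the basolateral bile acid transporter, had 96.1, 122, 155 and 76.9 CPM against 2.92, 7.80 and 6.52 CPM in ISC. Of 22 fitted genes of brush border structure, 14 were called higher than ISC and 13 higher than SEC-PRO, with 1 lower than SEC-PRO, and medians of 1.30 and 1.33. Krt20, a keratin of differentiated gut epithelium, had 294, 297, 548 and 292 CPM against 19.6, 14.2 and 14.9 CPM in ISC and 63.2, 58.5 and 49.2 CPM in SEC-PRO. Of 10 fitted genes of iron and calcium uptake, 4 were called higher than ISC and 5 than SEC-PRO. S100g, the calcium carrier calbindin-D9k, had 81.7, 363, 197 and 92.0 CPM in ENTERO-PRO and at most 13.9 CPM in the 3 ISC sums, and its WT libraries differed more from each other than WT 1 did from APC-KO 2. Fth1, the heavy chain of ferritin, had 6137, 9650.1, 5033 and 3949 CPM against 2657, 3177 and 1934 CPM in ISC.

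**Figure D2:**
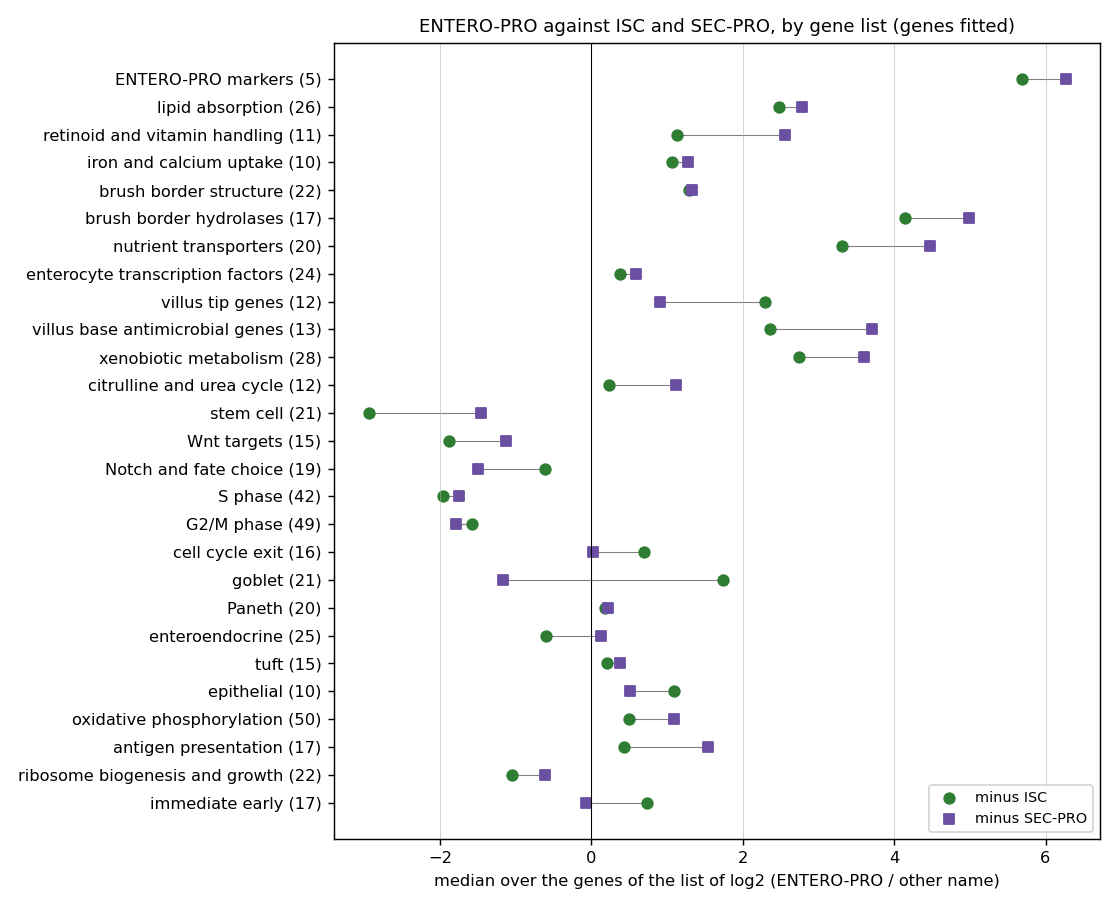
Median log2 difference of ENTERO-PRO from ISC (green circles) and from SEC-PRO (purple squares) over the fitted genes of each list, with the number of genes in brackets and a line at 0. Hydrolases and transporters lie furthest right after the 5 markers, stem cell, Wnt target, S phase and G2/M genes lie left of 0 against both names, and the goblet list lies right of 0 against ISC and left of 0 against SEC-PRO.

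The transcription factors of enterocytes split. Of 24 fitted, 9 were called higher and none lower than ISC, with a median of 0.38, and 8 higher and 2 lower than SEC-PRO, with a median of 0.59. Hnf4g, an enterocyte paralog of Hnf4a, had 209, 187, 394 and 184 CPM in ENTERO-PRO, 51.6, 40.4 and 61.1 CPM in ISC and 24.7, 19.8 and 39.1 CPM in SEC-PRO, log2 differences of 2.01 (SE 0.14) and 2.91 (SE 0.15). Hnf4a itself had 183, 163, 253 and 186 CPM against 219, 249 and 209 CPM in ISC, a log2 difference of -0.18 (SE 0.11). Creb3l3, a membrane-bound factor of lipid metabolism, had 104.05, 126, 351 and 82.0 CPM against 3.21, 4.26 and 6.01 CPM in ISC and was 21.9-fold above the next name, NON-EC. Cdx2, a factor of intestinal identity, and Klf5, a factor of crypt cells, had log2 differences from ISC of -0.14 and 0.24, neither called.

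Genes of defence and detoxification stood with the absorptive genes. Of 13 fitted antimicrobial genes of the villus base, 9 were called higher and none lower than ISC (median 2.36), and 11 higher and 1 lower than SEC-PRO (median 3.70). Reg1, a secreted lectin-like protein, had 1280.2, 2708, 1111 and 463 CPM in ENTERO-PRO against 46.7, 19.2 and 31.2 CPM in ISC. It was 45.8-fold above the next name, ISC, in mean CPM, the largest ratio among the genes named by that measure. Reg3b, an antibacterial lectin, had 7607, 3262, 6706 and 2512 CPM against 1036, 95.1 and 407 CPM in ISC, and 1717, 774, 2309 and 1083 CPM in the RNA outside cells. Of 28 fitted genes of xenobiotic metabolism, 23 were called higher than ISC (median 2.74) and 26 higher than SEC-PRO (median 3.60), and none lower than either. Gsta1, a glutathione transferase, had 237, 382, 197 and 116 CPM against 3.50, 1.42 and 2.17 CPM in ISC, the largest log2 difference among the named genes called higher than ISC, 6.38 (SE 0.34).

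Genes that turn ammonia and glutamine into citrulline separated the 2 reference names. Of 12 fitted, 1 was called higher and 1 lower than ISC, with a median of 0.23, while 6 were called higher and 1 lower than SEC-PRO, with a median of 1.12. Cps1, the first enzyme of the urea cycle, had 396, 384, 239 and 309 CPM in ENTERO-PRO, 768, 843 and 632 CPM in ISC and 116, 109 and 169 CPM in SEC-PRO. Otc, which makes citrulline, had 313, 306, 197 and 218 CPM in ENTERO-PRO, 225, 226 and 169 CPM in ISC and 11.5, 13.0 and 37.2 CPM in SEC-PRO. ENTERO-PRO thus lay below ISC for Cps1 and above it for Otc, and above SEC-PRO for both. Arg2, the mitochondrial arginase, had 449, 615, 647 and 276 CPM against 78.8, 89.4 and 51.8 CPM in ISC. All 50 fitted genes of oxidative phosphorylation had a positive log2 difference from ISC, with a median of 0.50 and none called, and 35 were called higher than SEC-PRO. Antigen presentation followed the same order, with 2 of 17 genes called higher than ISC and 12 higher than SEC-PRO.

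Stem cell genes were low. All 21 fitted stem cell genes were called lower than ISC, with a median of -2.94, and 16 were called lower than SEC-PRO, with a median of -1.45. Lgr5, the receptor that marks crypt base stem cells, had 0 UMIs in WT 1, WT 2 and APC-KO 1 and 4 UMIs in APC-KO 2, or 1.59 CPM, against 42.0, 46.8 and 58.8 CPM in ISC. Olfm4, a secreted stem cell marker, had 22.4, 13.0, 56.2 and 107 CPM against 2888, 3820.2 and 2349 CPM in ISC, and 827, 815, 237 and 838 CPM in the RNA outside cells. The ENTERO-PRO level was therefore below that of free RNA in every library. Of 15 fitted Wnt target genes, 14 were called lower than ISC and 10 lower and 1 higher than SEC-PRO. Axin2, a feedback inhibitor that Wnt signalling switches on, had 9.22, 15.2, 42.2 and 19.1 CPM against 127, 121 and 174 CPM in ISC. Of 22 genes of ribosome biogenesis and growth, 13 were called lower and 2 higher than ISC. Npm1 and Ncl, nucleolar proteins, had log2 differences of -1.35 and -1.43, and Ldha, lactate dehydrogenase, had 1.18.

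Genes of the Notch pathway and of fate choice were compared next. Of 19 fitted, 2 were called higher and 5 lower than ISC, and 1 higher and 11 lower than SEC-PRO. Dll1, a Notch ligand of secretory progenitors, had 22.4, 8.69, 28.1 and 28.7 CPM in ENTERO-PRO and 212, 246 and 126 CPM in SEC-PRO, a log2 difference of -2.60 (SE 0.18). Hes1, the repressor that Notch signalling switches on, had 51.4, 56.5, 28.1 and 109.9 CPM, between ISC with 98.9, 128 and 193 CPM and SEC-PRO with 35.5, 35.5 and 70.2 CPM. Atoh1 had 21.1, 28.2, 0 and 32.3 CPM in ENTERO-PRO, 19.6, 9.22 and 6.85 CPM in ISC and 146, 181 and 94.4 CPM in SEC-PRO. Sox4, a transcription factor of progenitors, had log2 differences of -2.65 from ISC and -2.92 from SEC-PRO. Outside that list, the receptor kinase Kit and the secretory factor Creb3l1 had log2 differences of -2.89 and -2.70 from SEC-PRO.

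Cell cycle genes bore on the progenitor side of the label. All 42 S phase genes were fitted and 39 were called lower than ISC, 35 lower than SEC-PRO, with medians of -1.96 and -1.75. Of 49 fitted G2/M genes, 37 were called lower than ISC and 43 lower than SEC-PRO, with medians of -1.58 and -1.79, and none was called higher than either. The summed S phase level was 626, 647, 576 and 1021 CPM in ENTERO-PRO against 2976, 3192, 2137 and 3006 CPM in ISC. Mki67, a marker of cycling cells, had 65.9, 78.2, 70.3 and 160.5 CPM in ENTERO-PRO, 432, 275 and 472 CPM in ISC and 632, 409 and 640.3 CPM in SEC-PRO. Top2a, the topoisomerase of dividing cells, had 18.4, 13.0, 0 and 103.5 CPM against 368, 207 and 541 CPM in ISC, and APC-KO 2 was the highest ENTERO-PRO library for both genes. Of 16 fitted genes of cell cycle exit, 6 were called higher and none lower than ISC. Cdkn2b, a cyclin-dependent kinase inhibitor, had 124, 224, 197 and 70.9 CPM against 12.3, 9.22 and 6.52 CPM in ISC.

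Single cells were then scored after thinning each to 2000 UMIs, which left out 1, 1, 3 and 6 shallower ENTERO-PRO cells. A cell was counted as cycling at 5 or more UMIs of the 93 S phase and G2/M genes. The share was 35.7% (41 of 115, exact binomial 95% interval 26.9% to 45.1%) in WT 1, 29.7% (19 of 64) in WT 2, 2 of 8 cells in APC-KO 1 and 55.4% (256 of 462, interval 50.748% to 60.005%) in APC-KO 2. In ISC the share was 96.0%, 92.8% and 94.6%, and in GOBLET-PRE cells 12.3%, 13.5% and 17.4%. Intervals cover counting error only. The count of 5 was not particular to dividing cells, since TUFT cells reached it in 62.4%, 57.1% and 65.9%, above the WT shares of ENTERO-PRO. At 10 or more UMIs the shares were 7.83%, 7.81% and 35.1% in ENTERO-PRO, 9.39%, 9.24% and 14.7% in TUFT and 77.5%, 71.5% and 76.3% in ISC. A Top2a UMI was found in 1 of 115, 1 of 64, 0 of 8 and 64 of 462 ENTERO-PRO cells, the last being 13.9% against 7.76% of TUFT cells in that library. A Mki67 UMI was found in 11.3%, 12.5% and 21.4% of ENTERO-PRO cells, against 3.29%, 1.68% and 6.90% of TUFT cells and 44.5%, 32.6% and 42.2% of ISC. Between 22.3% and 27.0% of ENTERO-PRO cells of these 3 libraries lay at 4 to 6 UMIs, near the count that defines the class. Without thinning the shares were 89.7%, 89.2%, 63.6% and 86.3%, in which the deeper WT cells lay above APC-KO 2.

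The enterocyte genes of lipid absorption, retinoid handling, hydrolases and transporters, 87 in all, gave a second count per cell. Its median was 15, 18, 88 and 12 UMIs of 2000, with a range from 2 to 326 in WT 1, 5 to 183 in WT 2, 3 to 134 in APC-KO 1 and 0 to 443 in APC-KO 2. In ISC cells the median was 5, 5 and 4 UMIs in WT 1, WT 2 and APC-KO 2, with a 90th percentile of 8 in each. The name therefore spanned cells with counts in the range of ISC and cells rich in enterocyte RNA. Across cells, the enterocyte and cycling counts had a Spearman rho of -0.32 in WT 1 (115 cells), -0.28 in WT 2 (64 cells) and -0.55 in APC-KO 2 (462 cells). Both counts come from the same 2000 UMIs of a cell, so the rho is a description.

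**Figure D3:**
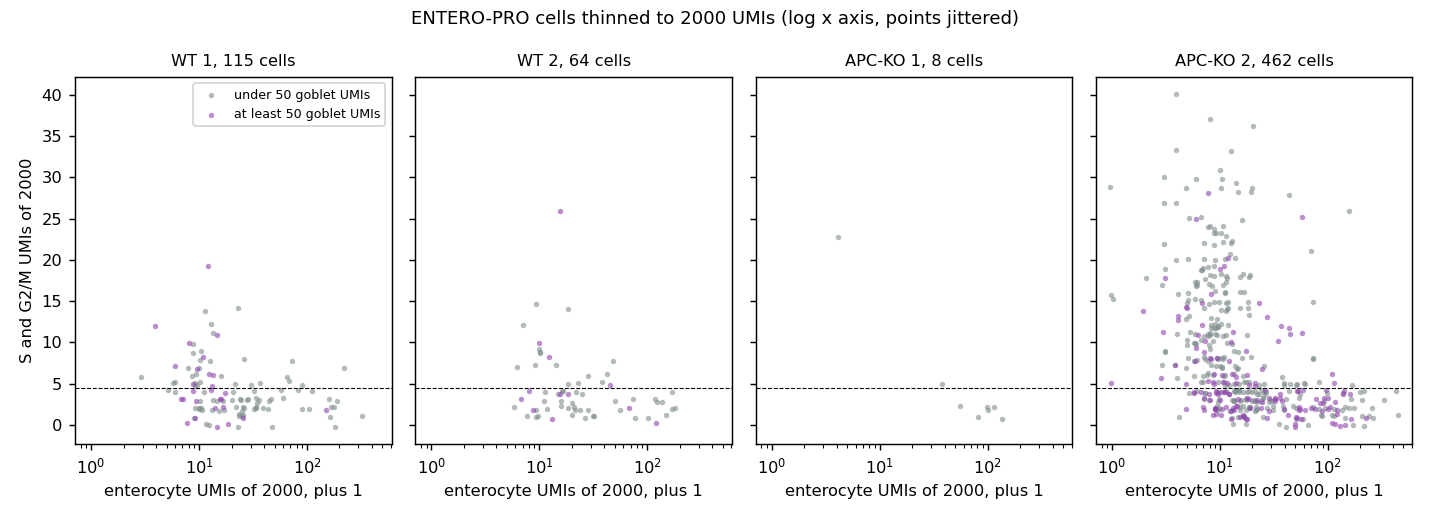
Each point is 1 ENTERO-PRO cell thinned to 2000 UMIs, with its enterocyte UMIs plus 1 on a log x axis and its S phase and G2/M UMIs on the y axis, 1 panel per library. The dashed line marks the count of 5 and purple points have at least 50 goblet UMIs. Cells with many cycling UMIs lie at the left, and the cells with the most cycling UMIs are in APC-KO 2.

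Each library was split into tertiles of its cells by the enterocyte count, APC-KO 1 having too few cells. The tertiles are ranges of a score and not cell types. From the lowest to the highest tertile, the cycling share was 57.9%, 28.9% and 20.5% in WT 1, 42.9%, 23.8% and 22.7% in WT 2, and 84.4%, 59.1% and 22.7% in APC-KO 2. In the highest tertile the 3 libraries thus lay within 3 points of each other, while APC-KO 2 was higher in the lowest tertile. The highest-tertile shares came from 8 of 39, 5 of 22 and 35 of 154 cells in WT 1, WT 2 and APC-KO 2. Their exact binomial intervals were wide, 9.30% to 36.5%, 7.82% to 45.4% and 16.4% to 30.2%. Tertiles were cut within each library and covered unlike scores. In the same order, the lowest spanned 2 to 10, 5 to 12 and 0 to 8 enterocyte UMIs. The highest began at 25, 26 and 18 UMIs. Cells of equal score were therefore not compared between libraries. Median depth differed little between the tertiles of a library (6824, 6895.5 and 6478 UMIs in WT 1). Of 266 genes of the other lists, 75 were higher in the highest than in the lowest tertile in all 3 libraries, and 84 were higher in none. The second count takes in genes with equal levels in both tertiles, such as undetected genes, so it is not a count of falls.

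Of 31 genes of xenobiotic metabolism 27 were higher in the highest tertile in all 3 libraries and 1 in none. Of 24 genes of brush border structure 18 were higher in all 3 libraries and 1 in none. The tertiles were cut on the same cells, so none of this carries a test. Cyp3a11, a cytochrome P450 of drug metabolism, had 0 CPM in the lowest and middle tertiles of all 3 libraries and 45.9, 144 and 153 CPM in the highest. Espn, an actin bundler of microvilli, went from 0, 6.10 and 4.79 CPM to 113, 85.2 and 135 CPM. Vil1, villin, went from 203, 147 and 177 CPM to 701, 570.0 and 594 CPM. Of 14 antimicrobial genes 8 were higher in all 3 libraries and 3 in none. Reg1 went from 136, 97.7 and 75.5 CPM to 2736, 7535 and 1163 CPM. Among 24 transcription factors 9 were higher in all 3 libraries and 4 in none. Creb3l3 went from 12.0, 12.2 and 7.19 CPM to 254, 288 and 189.6 CPM, Maf, a factor of the enterocyte programme, from 87.7, 61.0 and 32.3 CPM to 279, 209.7 and 225 CPM, and Hnf4g from 139.5, 97.7 and 111 CPM to 300.3, 190.0 and 248 CPM. Cdx1, a homeobox factor of the crypt, went the other way, from 191, 153 and 149 CPM to 95.9, 59.0 and 108 CPM. None of the 51 G2/M, 42 S phase and 22 stem cell genes was higher in all 3 libraries, and 36, 20 and 10 of them were higher in no library. Mki67 went from 112, 147 and 266 CPM to 12.5, 13.1 and 59.5 CPM, and Clca3b, of the stem cell list, from 383, 379 and 468 CPM to 87.6, 39.3 and 131 CPM. Cps1 also went down, from 494, 458 and 415 CPM to 296, 275 and 183 CPM.

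**Figure D4:**
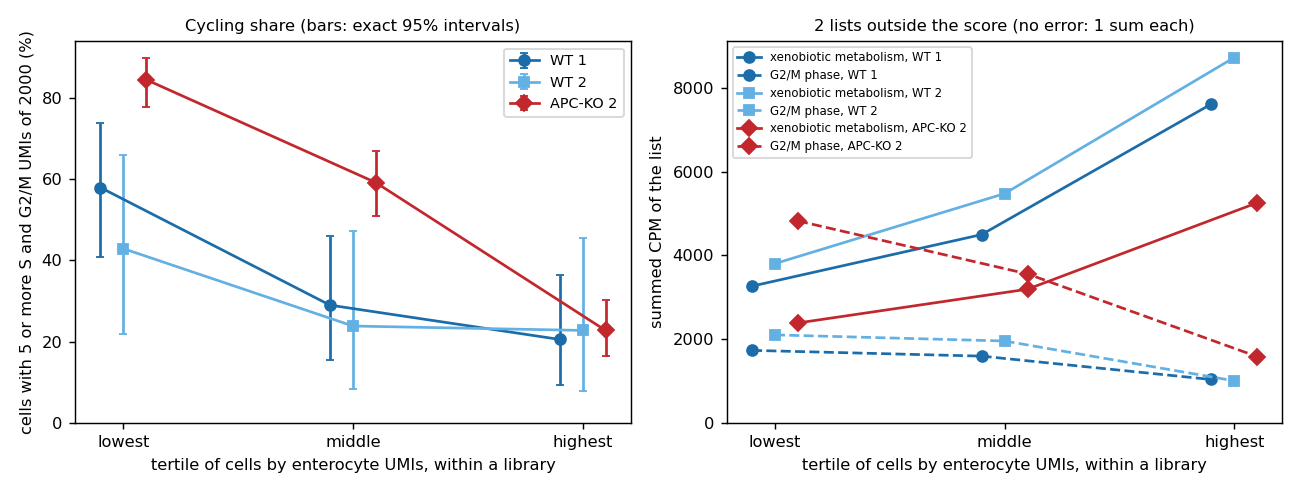
Left, the share of ENTERO-PRO cells with 5 or more S phase and G2/M UMIs of 2000 in each tertile of the enterocyte count within a library, with exact binomial 95% intervals. Right, the summed CPM of xenobiotic metabolism (solid) and G2/M genes (dashed) in the same tertiles: from lowest to highest the first went from 3265 to 7616 in WT 1, 3803 to 8727 in WT 2 and 2386 to 5257 in APC-KO 2, and the second from 1730.2 to 1034, 2100.1 to 1002 and 4824 to 1582.

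Markers of other cell types were measured in the same cells. The goblet list had a summed level of 29630 (WT 1), 22812 (WT 2), 2910 (APC-KO 1) and 41537 CPM (APC-KO 2) in ENTERO-PRO, and 17 of its 21 genes were called higher than ISC, while 11 were called lower than SEC-PRO. Muc2, the gel-forming mucin of goblet cells, had 1384, 927, 197 and 1768 CPM in ENTERO-PRO, 475, 244 and 255 CPM in ISC and 2061, 1535 and 1799 CPM in SEC-PRO. The RNA outside cells held 3301, 2995, 2788 and 3260.3 CPM of Muc2. The 11 cells of APC-KO 1 were far below the other libraries. Of 20 fitted Paneth genes 2 were called higher than ISC, with summed levels of 1881, 3935, 422 and 6010 CPM, and enteroendocrine, tuft, immune and stromal lists summed to at most 385, 96.1, 80.3 and 5.97 CPM. The RNA outside cells held 33486, 56252, 16259 and 29505 CPM of the Paneth list, above the ENTERO-PRO sum in every library. Of the stromal list 11 of 17 genes were at 0 in all ENTERO-PRO sums, and of the immune list 5 of 16.

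The goblet RNA was not spread evenly over the cells. A count of at least 50 goblet UMIs of 2000, chosen after the values were seen, was reached by 23.5% (27 of 115), 18.8% (12 of 64), 0 of 8 and 31.8% (147 of 462) of ENTERO-PRO cells. It was reached by 10.8%, 3.17% and 2.23% of ISC, 73.8%, 69.7% and 73.5% of SEC-PRO and 2.82%, 2.52% and 15.1% of TUFT cells, and between 2.16% and 3.12% of ENTERO-PRO cells lay at 40 to 60. In goblet-rich ENTERO-PRO cells Muc2 had 4849, 3603 and 4220 CPM, and in the rest 140.1, 98.7 and 180.2 CPM. Atoh1 had 69.8, 106 and 72.0 CPM in the goblet-rich cells and 3.59, 5.64 and 6.60 CPM in the rest. Fabp1 was present in both, at 1266, 1854 and 2481 CPM in the goblet-rich cells and 3316, 3520 and 2229 CPM in the rest, so it was lower in the goblet-rich cells of both WT libraries and not in those of APC-KO 2. The goblet-rich cells had a median of 8050, 9465 and 6991 UMIs against 6528, 7569.5 and 4451 in the rest. No doublet caller was run, and the part of doublets and of free RNA in the goblet-rich cells was not tested. Without these cells the log2 difference from ISC was -1.14 for Muc2 and -0.83 for Atoh1. The filter removes cells by their goblet UMIs, so lower goblet genes follow from it, and ISC kept its goblet-rich cells.

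The comparison of genotypes asked what differed in ENTERO-PRO cells between libraries with and without floxed Apc alleles. ENTERO-PRO made up 2.41%, 1.70%, 3.09% and 7.50% of kept cells. The APC-KO mean lay 3.24 points above the WT mean, 5.29% ± 3.12 (SD, n = 2) against 2.06% ± 0.501 (SD, n = 2), and the exact two-sided permutation test gave p = 0.333, the smallest p that 2 libraries against 2 allow. Apc itself, the targeted gene, had 63.2, 71.7, 98.4 and 77.3 CPM in ENTERO-PRO, a log2 difference of 0.32 (SE 0.29, edgeR adjusted p 0.830). A 3' tag can lie outside a deleted stretch, so this level checks neither the deletion nor the labels. Over summed counts, edgeR called 5 of 6348 genes (0.0788%) at an adjusted p of 0.05, 3 higher (0.0473%) and 2 lower (0.0315%) in APC-KO. At an unadjusted p under 0.05 there were 484. In 33.9% of the tested genes both libraries of one genotype lay above both of the other.

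Ada (ENSMUSG00000017697, chr2:163726584-163750239, minus strand), adenosine deaminase, an enzyme of the villus tip, had 2, 7, 2 and 318 UMIs, or 2.63, 15.2, 28.1 and 127 CPM. Its log2 difference was 3.92 (SE 0.57, edgeR adjusted p 0.0144). It could pass the filter on low counts through its APC-KO levels alone, so the group in which it was high also brought it into the test. Without APC-KO 2 it was not tested. The APC-KO 2 level rested on few cells: 37 of 468 had a UMI, and 10 of them held 80.5% of the UMIs. Of those 37 cells 31 also had an Apoa4 UMI, and within APC-KO 2 Ada went from 4.79 CPM in the lowest to 374 CPM in the highest tertile of the enterocyte count, while in WT it was at most 19.7 CPM in any tertile. Mt2 (ENSMUSG00000031762, chr8:94172664-94173568, plus strand), a metallothionein that binds zinc and copper, had 17, 16, 13 and 397 UMIs, or 22.4, 34.7, 183 and 158 CPM, and a log2 difference of 2.62 (SE 0.33, edgeR adjusted p 0.0034). A Mt2 UMI was found in 11.2%, 18.5%, 18.2% and 43.8% of the cells of WT 1, WT 2, APC-KO 1 and APC-KO 2. The 13 UMIs of APC-KO 1 lay in 2 of its 11 cells, while those of APC-KO 2 lay in 205 of 468. The RNA outside cells held 22.6, 26.7, 47.0 and 153 CPM of Mt2, highest in APC-KO 2. The ENTERO-PRO levels of WT 1 and APC-KO 2 lay near those of free RNA. ISC had 52.5, 41.1, 39.6 and 292 CPM of Mt2, where the value of APC-KO 1 came from 3 UMIs in 13 cells. The difference between the genotype effects in ENTERO-PRO and ISC was 0.01 (SE 0.30, edgeR adjusted p 0.999). Olfm4 (ENSMUSG00000022026, chr14:79984081-80023139, plus strand) had 17, 6, 4 and 268 UMIs and a log2 difference of 2.47 (SE 0.38, edgeR adjusted p 0.0230). The 4 Olfm4 UMIs of APC-KO 1 lay in 1 cell. In cells under 5 S phase and G2/M UMIs the Olfm4 difference was 0.94 (edgeR adjusted p 0.722), and in thinned cells it was 2.34 (edgeR adjusted p 0.302). Both APC-KO values lay above both WT values for these 3 genes. The rule that named genotype calls asked for no overlap of the groups, so this adds nothing to the calls. Of all tested genes 33.9% had no overlap.

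Mptx1 (ENSMUSG00000026531, chr1:174330518-174332873, plus strand), a pentraxin, had 39, 51, 0 and 4 UMIs, or 51.4, 111, 0 and 1.59 CPM, and a log2 difference of -5.46 (SE 0.61, edgeR adjusted p 0.00145). Mptx1 could in turn pass the filter on low counts through its WT levels alone. In each WT library 1 cell held most of its UMIs, 36 of 39 in WT 1 and 32 of 51 in WT 2. The fifth call was a gene model with no name. All 4 named calls were lost without WT 2, where the edgeR adjusted p was 0.322 for Ada and for Mt2, 1.00 for Olfm4 and 0.139 for Mptx1. Without WT 1 that of Mt2 was 0.119, and without APC-KO 2 those of Olfm4 and Mptx1 were 0.646 and 0.0938. The count of calls was 392 without APC-KO 1, 61 without APC-KO 2, 14 without WT 1 and 2 without WT 2.

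No marker passed the threshold. Apoa4 had a log2 difference of 1.30 (SE 0.30, edgeR adjusted p 0.187), and the other 4 had 0.34 to 0.68 with adjusted p of 0.671 to 0.848 (edgeR). Among cell cycle genes, 25 of 51 G2/M genes passed the filter on low counts, and none was called. A gene of this list could pass that filter through its level in APC-KO 2 and only 1 other library. The direction over those 25 is therefore not read here, and the summed level of all 51 is given instead. It was 1459, 1687, 2137 and 3342 CPM, with both APC-KO libraries above both WT libraries. Groups without overlap, in either direction, were seen in 33.9% of the single genes tested. In ISC the G2/M sum was 6223, 4732, 8101 and 7124 CPM, again with both APC-KO libraries above both WT libraries. The ISC value of APC-KO 1 came from 13 cells. The S phase sum, 626, 647, 576 and 1021 CPM, was highest in APC-KO 2 and lowest in APC-KO 1. In APC-KO 1 the cycling RNA lay largely in 1 cell, which had 23 S phase and G2/M UMIs of 2000 against a median of 2 over the 8 cells of that depth. Cdc20, an activator of the anaphase-promoting complex, had 11.9, 6.51, 56.2 and 43.0 CPM, a log2 difference of 2.22 (SE 0.44, edgeR adjusted p 0.111). All 4 Cdc20 UMIs and all 5 Mki67 UMIs of APC-KO 1 lay in 1 cell. Top2a had a log2 difference of 2.52 (edgeR adjusted p 0.112) and Mki67 of 1.07 (edgeR adjusted p 0.389). In the cell shares, APC-KO 2 lay 22.7 points above the mean of the WT libraries, at an exact two-sided permutation p of 0.333, the smallest that 2 libraries against 1 allow. Depth differed between the libraries compared in this share, since the median ENTERO-PRO cell had 4943 UMIs in APC-KO 2 and 6680 and 7655 in WT. In APC-KO 1 the median was 6729 UMIs, between the WT libraries. The thinned share answers for depth only in part.

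**Figure D5:**
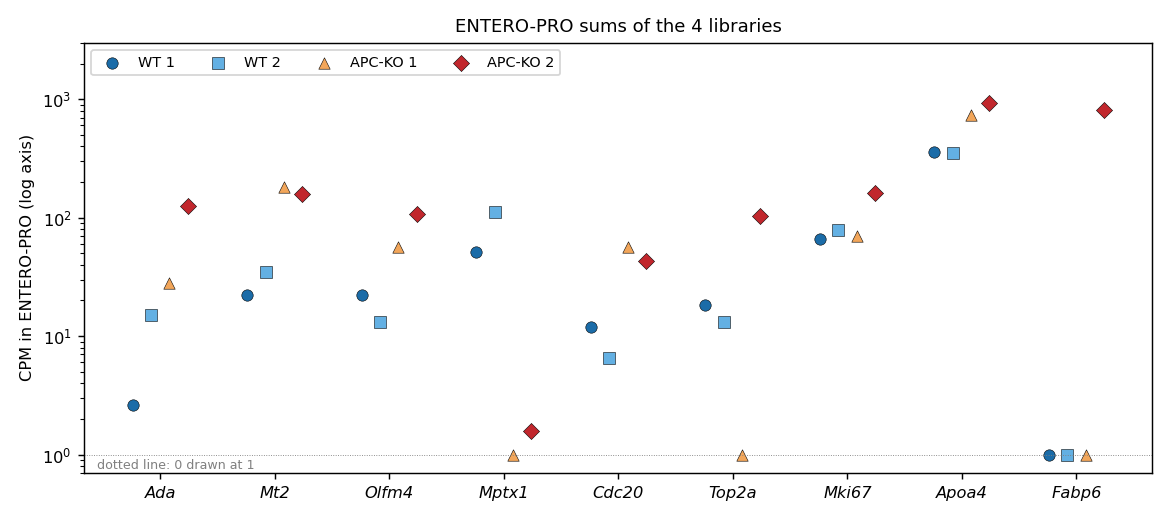
CPM of 9 genes in the ENTERO-PRO sum of each of the 4 libraries on a log axis, with 0 drawn at 1. APC-KO 1 (triangles) and APC-KO 2 (diamonds) both lie above the WT libraries for Ada, Mt2, Olfm4, Cdc20 and Apoa4 and below them for Mptx1. Ada, Mt2, Olfm4 and Mptx1 passed the test, and the rule that named genotype calls asked for no overlap of the groups. Fabp6 was found in APC-KO 2 alone.

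Whether a genotype difference was particular to ENTERO-PRO was tested against ISC, as the interaction of name and genotype with the library as a block. The ISC sum of APC-KO 1 held 13 cells, in which Reg1 had 2 UMIs and Ada 3, so its levels were coarse. edgeR called 55 of 9101 genes (0.604%), 48 with a larger difference in ENTERO-PRO (0.527%) and 7 with a smaller or more negative one (0.0769%), and 539 genes had an unadjusted p under 0.05. DESeq2 called none, with 49 at an unadjusted p under 0.05. Of the 55, 1 was kept without WT 1, 15 without WT 2, 55 without APC-KO 1 and 2 without APC-KO 2, so the calls rested on APC-KO 2 and the WT libraries. Without APC-KO 2 the balance of directions turned over, with 16 higher and 95 lower among 111 calls. Reg1 fell relative to ISC, with an interaction of -1.74 (SE 0.35, edgeR adjusted p 0.000339), with the ENTERO-PRO levels given above set against 46.7, 19.2, 26.4 and 31.2 CPM in ISC over the 4 libraries. Reg3b and Reg3g had interactions of -1.66 and -1.43 (edgeR adjusted p 0.00183 for each), and S100g of -1.66 (edgeR adjusted p 0.00174). Within ENTERO-PRO alone none of these 4 genes passed the test of genotype. In WT 2, 10 of 65 ENTERO-PRO cells held 93.3% of the Reg1, 85.0% of the Reg3b, 75.5% of the Reg3g and 97.6% of the S100g UMIs. In WT 1, 10 of 116 cells held 68.7%, 58.0%, 51.4% and 74.2% of them. The Reg1 level of APC-KO 1, 1111 CPM, lay near the 1280 CPM of WT 1.

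Ada had an interaction of 4.21 (SE 0.51, edgeR adjusted p 6.76e-13), with ISC at 13.7, 14.9, 39.6 and 12.0 CPM. Olfm4 had 2.73 (SE 0.47, edgeR adjusted p 5.58e-06), with ISC at 2888, 3820.2, 2784 and 2349 CPM. In APC-KO 2, where ENTERO-PRO was highest, the ISC level of both genes lay below that of both WT libraries. Fabp6 (ENSMUSG00000020405, chr11:43596049-43601540, minus strand), the bile acid binding protein of the ileum, had 0, 0, 0 and 2027 UMIs in ENTERO-PRO. The UMIs lay in 36 of the 468 cells of APC-KO 2, with 98.0% in 10 of them. With so few cells carrying it, a count of 0 in 116, 65 or 11 cells does not show that such cells were absent. The RNA outside cells held 50.6, 41.5, 44.3 and 153 CPM. Secretory genes were among the calls in the same direction, namely 6 of 21 goblet and 8 of 13 Paneth genes. The summed goblet level of ENTERO-PRO was lowest in APC-KO 1 and highest in APC-KO 2, and 3.25% of the APC-KO 2 cells had at least 50 Paneth UMIs of 2000, against 0 of 115 and 1 of 64 WT cells. With ENTERO-PRO cells under 50 goblet UMIs, 22 of the 55 calls were kept, and the Paneth genes Defa24, Defa30 and Itln1 had interactions of 0.12, 0.37 and 0.03 with no call. That filter was set on goblet UMIs and on ENTERO-PRO alone, with ISC left whole, and the part of goblet-rich cells in the others was not tested further.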

How the data were processed

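Duodenal crypt cells of 4 libraries, 2 WT and 2 APC-KO, were profiled by droplet single-cell RNA sequencing that tags the 3' end of transcripts. The authors deposited raw UMI counts per gene and barcode, and the submitters' processing notes name Cell Ranger 3.0.2, STAR and the mm10 build. The deposited per-cell tables give the authors' cell name, UMI and gene counts and the percent of mitochondrial UMIs. Their kept cells held between 901 and 3000 genes and at most 7.00 percent mitochondrial UMIs, and their cell names were used as given. Groups came from the sample titles.

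Counts were summed per cell name and library. Genotypes, and the difference of their effects between ENTERO-PRO and ISC, were tested with edgeR 4.0.16 (quasi-likelihood test, TMM, filterByExpr, R 4.3.3) with Benjamini-Hochberg adjustment at 0.05. The second of these fits took the library as a block. Differences between names were described as log2 values with SE from an edgeR fit over all names, on sums of at least 10 cells. DESeq2 1.42.0, another filter, other cell sets and each library left out were the alternatives, with thinning, free RNA subtraction and a replicate block. On simulated data with a log2 change of 2, the genotype fit called 178 of 185 changed genes (6025 genes), the interaction fit 146 of 191 (8671 genes) and the fit of names against ISC 184 of 189 (9806 genes). Genes left unchanged made up 7.29%, 1.35% and 12.0% of the calls of these fits. The simulated counts took the dispersions of the fit and a common mean for each gene. UMIs held by a few cells were not simulated, so these shares do not give the power on the real counts.

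Genes were named by rule: the 5 markers, up to 4 genes of highest CPM of each list, a fixed set of stem cell, cycle, fate and Wnt genes, the called genotype and interaction genes with a mean of at least 20 CPM and no overlap (up to 10 per direction), the 10 largest and 10 lowest type differences and the 10 largest ratios to the next name at a mean of at least 100 CPM. Of the genes this rule names, 1 is not reported here. Cyp3a11, Espn, Vil1, Maf, Cdx1, Slc10a2, Gata4 and Pdx1 were chosen after their values were seen. The members and gene lists were chosen with earlier results of these data known. Gene positions are those of GENCODE on GRCm38. RefSeq promoter windows matched 8545 of the 10873 genes fitted.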

Additional observations from a re-analysis of the deposited data

Results flagged for a closer look

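For 24 named genes the genotype difference in ENTERO-PRO was unlike that in ISC by the edgeR test of the interaction, whose values are log2 differences of the ENTERO-PRO effect from the ISC effect. Over all 9101 genes 0.527% were called higher and 0.0769% lower. Of 11 tested antimicrobial genes 4 were called lower, and of these Reg1 had -1.74, Reg3b -1.66 and Reg3g -1.43. In the iron and calcium list 1 of 9 tested genes was called lower, S100g with -1.66. In WT 2, 10 of 65 ENTERO-PRO cells held 93.3% of the Reg1 and 97.6% of the S100g UMIs. Lipid absorption (25 genes), retinoid handling (8), hydrolases (17) and nutrient transporters (21) had no lower call. Ada, of the villus tip list, had 4.21. Fabp6 had a fitted value of 10.9 (edgeR adjusted p 3.11e-11), which depends on the prior count since both WT sums were at 0.

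Of 22 tested stem cell genes 3 were called higher: Olfm4 had 2.73, Slc12a2 1.45 and Aqp4 1.94. Of 49 tested G2/M genes 6 were called higher, among them Cdc20 with 2.03, Top2a with 1.61 and Tpx2 with 2.54, and of 42 S phase genes 1 was. Olfm4 passed with 17, 6, 4 and 268 UMIs in WT 1, WT 2, APC-KO 1 and APC-KO 2, and Tpx2 with 4, 0, 1 and 71.

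Of 13 tested Paneth genes 8 were called higher. Lyz1 had 1.496, Defa24 1.66, Defa30 1.62, Itln1 2.19, Mmp7 1.95 and Mptx2 3.11. The RNA outside cells held 16994, 23884, 7787 and 16007.5 CPM of Defa24 in WT 1, WT 2, APC-KO 1 and APC-KO 2. These levels lay above those of ENTERO-PRO and ISC in every library, and the same held for the other Paneth genes named here. The part of free RNA in these differences was not tested. With ENTERO-PRO cells under 50 goblet UMIs Defa24, Defa30 and Itln1 had 0.12, 0.37 and 0.03 and Mmp7 -0.15. Of 21 goblet genes 6 were called higher, among them Creb3l1 with 2.04. Of 9 tested enteroendocrine genes 2 were called higher, among them Chgb with 1.31, and 1 lower. That was Ghrl, the hormone ghrelin, at -3.17, with 153 of its 160 UMIs in WT 1 in 1 cell. On none of these lists, Rnase1 had 2.13, Rab15 1.85 and Slfn9 1.86. At least 50 Paneth UMIs of 2000 were found in 15 of 462 ENTERO-PRO cells of APC-KO 2 and in 1 of 64 of WT 2, and their part in these values was not tested.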

How the results depend on the processing

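The count of genotype calls, 5, was 8 with DESeq2 size factors, 80 with no filter beyond 1 count (61 higher and 19 lower), and 3 each with cells thinned to 2000 UMIs, with free RNA subtracted and with the replicate block. It ranged from 2 to 392 over the libraries left out. The numbers of the libraries pair nothing in the labels (r = -0.04 between same-numbered libraries over 6348 genes), and 2 of the 5 calls were kept under the block, where Ada (edgeR adjusted p 0.170), Mt2 (0.0844) and Olfm4 (0.579) were not called. DESeq2 called 5 genes, 2 of them among the 5. The 3 named rises were not among its calls, with an adjusted p (DESeq2 Wald test) of 0.0597 for Mt2 and 0.9998 for Ada and for Olfm4. Ada also lost its call with free RNA subtracted (edgeR adjusted p 0.0548) and with ENTERO-PRO cells under 50 goblet UMIs (edgeR adjusted p 0.0630).

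The interaction count, 55, was 0 with the DESeq2 Wald test, 17 with thinned cells, 31 with cells under 5 S phase and G2/M UMIs, and from 1 to 139 over libraries left out. Without APC-KO 2 the interaction changed sign for Defa24 (range over libraries left out -0.12 to 2.15), Defa30 (-0.62 to 1.78), Itln1 (-0.19 to 2.76), Rnase1 (-5.46 to 3.12), Slc12a2 (-0.55 to 3.03) and Top2a (-8.04 to 1.76). With ENTERO-PRO cells under 50 goblet UMIs, a set chosen after seeing the data, Mmp7 had -0.15, and Defa24 (0.12), Defa30 (0.37), Itln1 (0.03) and Rnase1 (1.29) lost their calls. Without APC-KO 2 the 111 calls were 16 higher and 95 lower.

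The differences from ISC and SEC-PRO gave 2175 and 2479 calls, and 1388 against ISC where every library with at least 10 cells had to share the direction. Of 1544 gene values recomputed under alternatives against each name, 14 reversed against ISC and 5 against SEC-PRO. With ENTERO-PRO cells under 50 goblet UMIs, a filter that itself removes goblet RNA and leaves ISC and SEC-PRO whole, the difference from ISC was -0.83 for Atoh1, -2.35 for Creb3l1, -1.12 for Fcgbp, -1.62 for Kit, -1.14 for Muc2, -1.30 for Sct, -0.76 for Spink4, -0.64 for Tff3 and -0.94 for Zg16, and that of Zg16 from SEC-PRO was -2.09. In cells under 5 S phase and G2/M UMIs, a filter that itself removes cycling RNA, it was 4.41 for Fyb, 1.14 for Gmnn, 0.28 for Pcna and 1.71 for Tubb4b against ISC, and 1.20 for Gmnn and 1.27 for Tubb4b against SEC-PRO. The share of calls that were higher went from 44.4% to 57.9% against ISC and from 46.5% to 59.3% against SEC-PRO under that filter, and to 35.4% against SEC-PRO without APC-KO 2. Over libraries left out, Dclk1 ranged from -2.21 to 1.54 against ISC and from -3.14 to 2.62 against SEC-PRO, and Vim from -3.93 to 1.62 against SEC-PRO. The difference of the cycling share was -3.12 points without thinning. Other causes of these changes were not tested. The 11 ENTERO-PRO cells of APC-KO 1 limit every genotype value, and its 13 ISC cells limit every interaction.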

Other observations

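Genes of ileal bile acid uptake were found in a few ENTERO-PRO cells of APC-KO 2. Slc10a2, the apical bile acid transporter of the ileum, had 15 UMIs in 5 of the 468 cells, and all 5 also had a Fabp6 UMI. Of the 37 cells with an Ada UMI and the 36 with a Fabp6 UMI, 7 had both, and 11 of the Fabp6 cells had an Apoa4 UMI. Gata4, a factor of the proximal small intestine, had 50.05, 58.6, 28.1 and 55.7 CPM in ENTERO-PRO of WT 1, WT 2, APC-KO 1 and APC-KO 2. Pdx1, a factor of the duodenum, had 18.4, 21.7, 0 and 18.3 CPM, and APC-KO 1 had no UMI in its 11 cells.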
